A study of Drosophila melanogaster with 4 samples.

Results

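The genes described here act on juvenile hormone after it has been made. They are the juvenile hormone epoxide hydrolases Jheh1, Jheh2 and Jheh3, the esterases Jhe and Jhedup, and Jhbp13, which is named as a juvenile hormone binding protein. Their transcripts were compared between heads of Drosophila melanogaster males fed ethosuximide (ETH), a drug against absence seizures that acts on T-type calcium channels, and heads of males kept on normal food (NF). Of these 6 genes, 3 had a named spot on the array and 2 had values, Jheh2 and Jhbp13, among 3769 genes with a value in the whole series. The set was chosen by gene name around Jheh2 and Jhbp13, which were selected on their ratios of ETH over NF in these same arrays. Those ratios are therefore a description. Calls of these clones in the fit of the whole table are reported as part of how they were chosen, not as a test of them.

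Juvenile hormone is a sesquiterpenoid made in glands called the corpora allata. It ends its action when epoxide hydrolases open its epoxide ring or when esterases remove its methyl ester. In the haemolymph it is lipophilic and travels bound to carrier proteins. In larvae it holds back metamorphosis, and in adult flies it acts on reproduction and behaviour. Epoxide hydrolases of the same family in mammals also act on epoxides of foreign compounds.

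Both groups were unmated males of the Oregon-R wild type. At 10 to 11 days of age they were moved to new vials of 30 flies for 3 days, on food with 3.48 mg/ml of ETH or on normal food, and frozen, and the heads were sieved off. Each of 4 spotted cDNA arrays carried cRNA from 1 pool of ETH heads and 1 pool of NF heads in different dyes, and counts as 1 biological replicate. ETH carried Cy5 on arrays 1 and 2 and Cy3 on arrays 3 and 4. A pooled head sample holds eyes, brain, fat body and muscle together, so more RNA per cell and more cells of a type cannot be told apart.

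Of the 13824 clones, 5095 kept a value on array 1 after the authors' filters, 3169 on array 2, 1101 on array 3 and 812 on array 4. Those measured on 3 or 4 arrays, 980 in all, were fitted as a whole table with limma. With 4 arrays the precision of each value is limited. Some genes that mark tissues of the head had values on at least 3 arrays. Among them were the photoreceptor genes inaD, inaC, Arr1 and chp and the synaptic genes Sap47 and Rab3. These were 4 of 9 listed photoreceptor genes and 2 of 7 listed neuron genes, and Arr2 had a clone with no value. The gut gene Amyrel and the reproductive tract gene ocn also had values on 3 arrays. The values therefore do not show that the samples held head tissue alone. Of the marker lists of fat body, photoreceptor, neuron, muscle, gut and reproductive tract, 12 genes were tested. The mean centred log2 ratios of their clones lay between -0.45 (chp) and 0.44 (ocn). By list, the median was -0.32 for photoreceptor (4 clones, with Arr1 above 0 at 0.26) and -0.32 for muscle (2 clones). It was 0.12 for fat body (3 clones) and 0.030 for neuron (2 clones), beside 0.0037 over all clones. Gut had 1 clone, at 0.089, and reproductive tract 1, ocn. Whether any list differed from the other clones was not tested. Single arrays spread wider, as for the gut gene Amyrel at -1.17 on array 2 and 1.24 on array 3. With arrays 3 and 4 turned as described below, 0 passed limma's test on the deposited or the centred values. Before adjustment, chp, FASN1, ocn and Act88F had p under 0.05 in limma's test after centring, among 119 of all 980 clones. With no column turned, the muscle gene Act88F passed on the deposited values (limma adjusted p = 0.0467).

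Every value below is a log2 ratio of ETH over NF, so that 1 unit is a doubling and a value above 0 means more signal from ETH heads. The deposited columns do not say which dye is the numerator. Cy5 was taken as numerator, since the labels name it as the channel 1 dye, and arrays 3 and 4 were multiplied by -1 to run as ETH over NF. With Cy3 as numerator every sign below would change, so the direction is not settled. The columns were also not centred on 0. The median of the tested clones, so turned, was 0.74 on array 1, 0.16 on array 2, -0.24 on array 3 and -0.63 on array 4. Centred values are the ratios minus these medians, and show a clone relative to the typical clone of its array.

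Jheh2 lies on chromosome arm 2R and encodes an epoxide hydrolase of juvenile hormone. It was represented by a pair of clones, called A and B here, each printed as 2 neighbouring spots. On array 1 the spots of clone A read 2.51 and 2.83. They read 1.73 and 1.85 on array 2, 0.53 and 1.01 on array 3, and 0.80 and 0.99 on array 4. All spots of clone A were thus above 0 in both dye orientations. Clone B had no value on array 1. Its spots read 1.87 and 1.99 on array 2, 1.03 and 1.07 on array 3, and 1.11 and 1.16 on array 4.

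Averaged over spots and arrays, clone A had a ratio of 1.53 ± 0.89 (SD, n = 4), or 2.89-fold, and clone B one of 1.37 ± 0.49 (SD, n = 3), or 2.59-fold. The highest values came from arrays 1 and 2, where ETH carried Cy5, and the lowest from arrays 3 and 4. The values of clone A spanned 1.90 on the deposited scale and 0.92 after centring. On the centred scale clone A was at 1.93, 1.63, 1.01 and 1.52 on arrays 1 to 4, with a mean of 1.52 ± 0.38 (SD, n = 4). Clone B was at 1.77, 1.29 and 1.77 on arrays 2 to 4, with a mean of 1.61 ± 0.28 (SD, n = 3). The lowest centred value of both clones came from array 3.

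**Figure D1:**
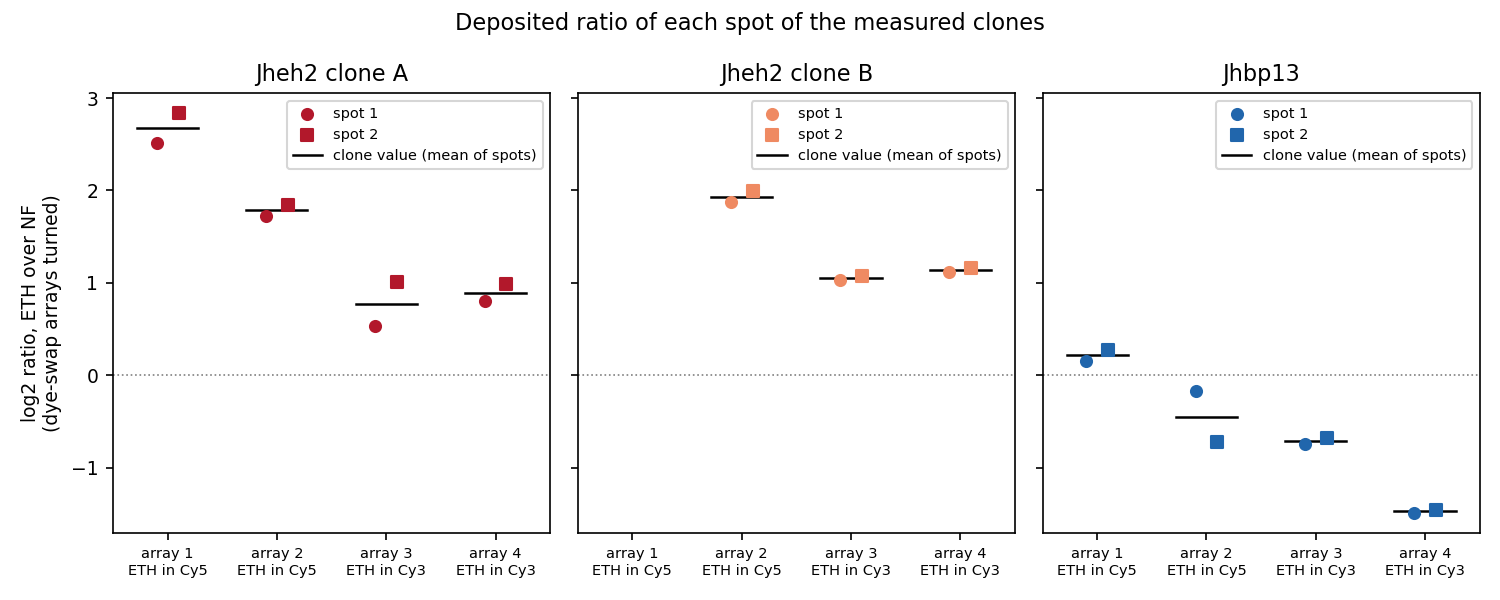
Log2 ratio of ETH over NF for each spot of the measured clones, by array, with arrays 3 and 4 turned and without centring. Circles and squares are the neighbouring spots of a clone and the black bar is their mean. Every spot of both Jheh2 clones lies above 0, while Jhbp13 lies at 0.21 on array 1 and below 0 on the other arrays, lowest at -1.47 on array 4.

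The Jheh2 clones carry the same gene name, and could be compared on the 3 arrays they share. Clone A lay below clone B by 0.15, 0.28 and 0.25 on arrays 2, 3 and 4, a mean absolute gap of 0.22. Over the 23 clone pairs of the 21 other genes with more than 1 tested clone, this gap lay between 0.059 and 1.32, with a median of 0.34. Without array 1, which clone B lacks, clone A averaged 1.15 (n = 3) on the deposited values, against 1.37 for clone B. The gap between the spots of clone A on array 3 was 0.47, larger than in 90.3% of the 1097 clones with both spots on that array. The spots of clone B differed by 0.045 there.

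Within each array the Jheh2 clones stood near the top of the tested clones. Clone A ranked 2nd of 885 on array 1, 3rd of 969 on array 2, 17th of 885 on array 3 and 6th of 567 on array 4. Clone B ranked 2nd of 969, 9th of 885 and 3rd of 567 on arrays 2 to 4. These ranks do not depend on the column offsets, since centring moves all clones of an array alike. Those on arrays 3 and 4 do depend on turning these columns. With no column turned, clone A would rank 869th of 885 and 562nd of 567 from the highest there, and clone B 877th and 565th. On the mean over arrays, clones A and B ranked 2nd and 5th of 980 on the deposited values and 4th and 2nd after centring, with arrays 3 and 4 turned.

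**Figure D2:**
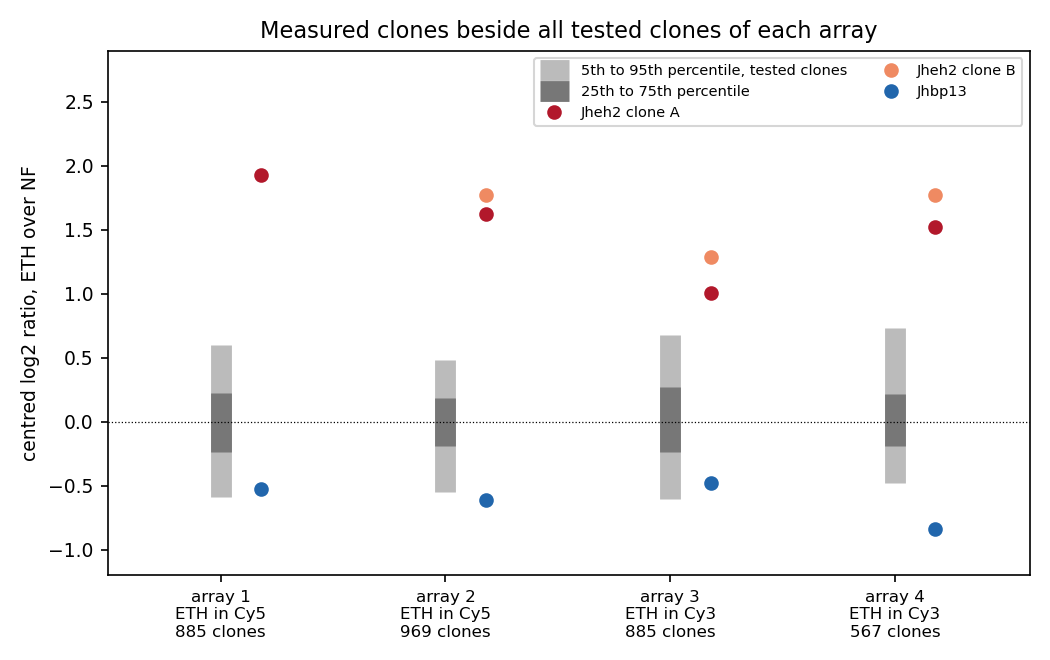
Centred log2 ratio of ETH over NF by array. Grey bars span the 5th to 95th and the 25th to 75th percentile of the tested clones, whose number is given under each array, and points are the measured clones. The Jheh2 clones lie above the 95th percentile on every array that measured them, and Jhbp13 lies below the 5th percentile on arrays 2 and 4.

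Jhbp13, on chromosome arm 2L, had 1 clone, with ratios below those of Jheh2 on every array. Its spots read 0.15 and 0.27 on array 1, -0.18 and -0.72 on array 2, -0.75 and -0.68 on array 3, and -1.49 and -1.46 on array 4. On the deposited values array 1 was above 0 and the other arrays were below, with a mean of -0.61 ± 0.70 (SD, n = 4). The mean rested partly on array 4, and was -0.32 without it.

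After centring, Jhbp13 was at -0.53, -0.61, -0.48 and -0.84 on arrays 1 to 4, with a mean of -0.61 ± 0.16 (SD, n = 4), or 0.654-fold. All arrays were then below 0. The spots on array 2 differed by 0.55, more than in 86.8% of the 3161 clones with both spots there, and on array 4 by 0.033. Jhbp13 ranked 57th from the lowest of 885 on array 1, 42nd of 969 on array 2, 76th of 885 on array 3 and 2nd of 567 on array 4. It therefore lay lowest on array 4 and less far out on the others, while on the centred mean it ranked 6th from the lowest of 980, with arrays 3 and 4 turned. With no column turned, Jhbp13 would rank 810th of 885 and 566th of 567 from the lowest on arrays 3 and 4.

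The gap between Jheh2 and Jhbp13 within an array is free of the column offset. Clone A exceeded Jhbp13 by 2.46, 2.24, 1.49 and 2.37 on arrays 1 to 4, with a mean of 2.14 ± 0.44 (SD, n = 4). Clone B exceeded it by 2.38, 1.77 and 2.61 on arrays 2 to 4. The gap was smallest on array 3 for both clones.

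In limma's test on the deposited values, 5 clones (0.510% of 980) had a positive ratio and an adjusted p under 0.05, and both Jheh2 clones were among them. No clone was called lower (0%). After centring, 1.22% were called higher, again with both Jheh2 clones, and 0.204% lower, with Jhbp13. These calls are part of what chose the genes, and support nothing further. On the deposited values both Jheh2 calls were lost without array 2, and that of clone B without array 3. After centring both kept their calls whichever array was left out, and Jhbp13 lost its call in each case, as it did when the arrays were also scaled to 1 spread. With clones of at least 2 arrays in the fit, clone B was not called on the deposited values and Jhbp13 was not called after centring. The unmoderated test, which uses each clone's own spread, called 0 of the 3 clones on either set of values, and 0 of all 980.

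Whether the dye-swap columns had been turned before deposit is not stated. If they had been, no column should be turned, and after centring the ratios of each of the 3 clones would have opposite signs in the dye orientations. Clone A of Jheh2 would be at 1.93 and 1.63 on arrays 1 and 2 and at -1.01 and -1.52 on arrays 3 and 4, with a mean of 0.26 ± 1.78 (SD, n = 4). Clone B would average -0.43 ± 1.92 (SD, n = 3). Jhbp13 would average 0.046 ± 0.72 (SD, n = 4), with arrays 1 and 2 below 0 and arrays 3 and 4 above. On the deposited values, where array 2 alone of Jhbp13 was below 0, the means would be 0.70 for clone A, -0.085 for clone B and 0.49 for Jhbp13. By its centred mean clone A would rank 87th and clone B 937th from the highest of 980, and Jhbp13 617th from the lowest. By the deposited mean clones A and B would rank 74th and 946th from the highest. The gap of clone A over Jhbp13 would be 2.46 and 2.24 on arrays 1 and 2 and -1.49 and -2.37 on arrays 3 and 4, with a mean of 0.21, and that of clone B would average -0.67.

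Under that reading 3.27% of all clones were called higher on the deposited values and 0% after centring. None of the 3 clones was among them. For clones with both arrays of each orientation the readings exchange the drug ratio and the dye effect, but not for clone B, which lacks array 1. In limma's fit with a dye term on centred values, the dye effect was 0.26 for clone A (adjusted p = 0.394), 0.12 for clone B (adjusted p = 0.757) and 0.046 for Jhbp13 (adjusted p = 0.887). On the deposited values, where the median dye effect of all clones was 0.39, it was 0.70 for clone A (limma adjusted p = 0.0561), 0.42 for clone B (limma adjusted p = 0.277) and 0.49 for Jhbp13 (limma adjusted p = 0.151). Over all 980 clones, the fit with a dye term called 7 for the drug ratio and 31 for the dye on the deposited values. After centring it called 28 for the drug ratio and 2 for the dye.

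**Figure D3:**
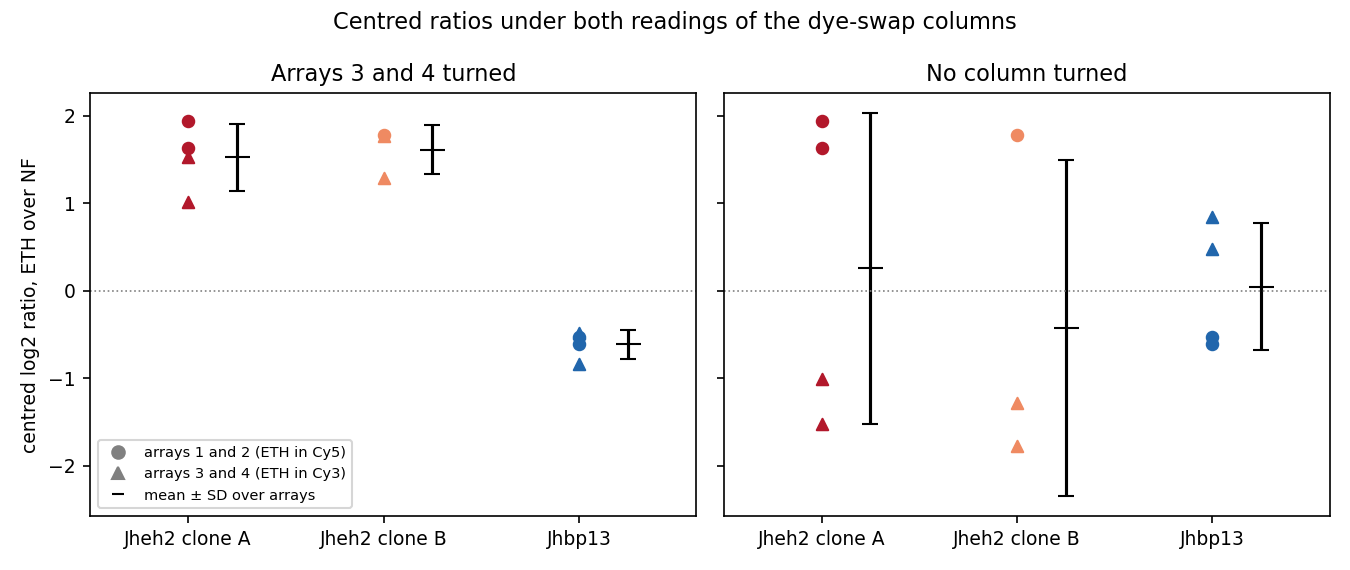
Centred log2 ratio of ETH over NF for the measured clones when arrays 3 and 4 are turned (left) and when no column is turned (right). Circles are arrays with ETH in Cy5, triangles arrays with ETH in Cy3, and bars the mean ± SD over arrays. The arrays of a clone lie together on the left, with SDs of 0.38, 0.28 and 0.16, and on both sides of 0 on the right.

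The other members gave no value. Jhedup, an esterase-like neighbour of Jhe, had 1 clone whose spots were empty on all 4 arrays, so it fell just outside the rule of a value on at least 1 array. No spot was named for Jheh1, Jheh3 or Jhe in the probe annotation used here, and they were not analysed here. Transcripts of the juvenile hormone esterases were thus not measured. The arrays read RNA, so breakdown of the hormone itself was measured for none of the members. All 3 clones with a value had values on at least 3 arrays and entered the fit.

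In RefSeq's gene order Jheh2 lies between Jheh1 and Jheh3. Of the 5 protein-coding genes on either side of it, CG15084 alone had a value, at centred ratios of -0.11 and -0.18 on arrays 1 and 2, where Jheh2 clone A was at 1.93 and 1.63. Whether the Jheh2 spots also bound transcripts of Jheh1 or Jheh3 was not tested.

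Jhbp14, named for the same binding protein family, is the gene next to Jhbp13. Its 2 clones shared arrays 1 and 2, and 1 of them was also measured on array 3. The clone measured on 3 arrays was at centred ratios of -0.21, -0.97 and -0.36 on arrays 1 to 3, with a mean of -0.51 ± 0.40 (SD, n = 3), and the other at -0.41 and -0.32 on arrays 1 and 2. Every centred value of Jhbp14 was below 0, like those of Jhbp13. It did not pass limma's test (adjusted p = 0.321 after centring and 0.994 on the deposited values, where the mean was -0.29). Whether spots of Jhbp13 and Jhbp14 share signal was not tested. With no column turned, its centred mean was -0.27 (limma adjusted p = 0.847).

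Other genes of the juvenile hormone pathway were listed by role, not by how they moved. The lists held 34 genes of synthesis, of reception and response, of transport and of the regulating peptides. For 2 of them, Mevk and JhI-1, the symbol is not in RefSeq's table, so clones under another name would have been missed. Of the 34 genes, 19 had a named clone and 15 a value. Of these, 3 genes, in 4 clones, were tested, and 0 passed limma's test on the deposited or the centred values. The unadjusted p was under 0.05 for 0 of the 4 in limma's test, beside 26 (deposited) and 119 (centred) of all 980 clones. In the unmoderated test it was under 0.05 for 0, beside 21 (deposited) and 105 (centred). The median ratio of the 4 clones was 0.071, beside 0.090 over all 980 clones, and after centring 0.058, beside 0.0037.

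JhI-21, an amino acid transporter named for its induction by juvenile hormone, was at 0.50, -0.0090, 0.22 and -0.49 on arrays 1 to 4, with a mean of 0.053 ± 0.42 (SD, n = 4). After centring it lay below 0 on arrays 1 and 2 and above 0 on arrays 3 and 4, with a mean of 0.046 (limma adjusted p = 0.932). The clones of apolpp, the precursor of the lipid carrier lipophorin, had centred means of 0.12 ± 0.25 (SD, n = 4) and 0.071 ± 0.32 (SD, n = 3), and neither passed limma's test (adjusted p = 0.775 and 0.907). AstC encodes allatostatin C, a peptide known from moths for restraining the corpora allata. It was at -0.13 ± 0.35 (SD, n = 3) after centring (limma adjusted p = 0.822).

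The enzymes and receptors at the core of the pathway could hardly be read. For synthesis, 0 of 10 listed genes were tested, 3 had values on 2 arrays and 2 on 1 array. The methyltransferase gene jhamt, which acts at the end of synthesis, had a clone with no value. Whether the sieved heads held the corpora allata, where the hormone is made, was not tested. The receptor genes Met and gce and the response gene Kr-h1 gave no value. Of the 15 genes of reception and response, 6 had values and JhI-21 was the 1 tested.

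Among other carboxylesterases, 3 of 14 listed genes had values. The 1 tested, alpha-Est3, was at 0.86, 0.30 and -0.042 on arrays 1 to 3. Its centred values of 0.12, 0.14 and 0.20 lay close together, with a mean of 0.15 ± 0.038 (SD, n = 3; limma adjusted p = 0.675). Of the 14 listed genes of the takeout and binding protein family other than Jhbp13, 7 had a named clone, and Jhbp14 alone had values. Of the 2 tested clones of these families, alpha-Est3 and Jhbp14, 0 passed limma's test on either set of values. Counted by an unadjusted p under 0.05, there were 0 on the deposited values in either test. Over all 980 clones there were 26 in limma's test and 21 in the unmoderated test. After centring there was 1 in limma's test, Jhbp14, beside 119 of all clones. In the unmoderated test there was 1, alpha-Est3, beside 105. The median ratio of the 2 clones was 0.041, beside 0.090 over all clones, and after centring -0.18, beside 0.0037.

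**Figure D4:**
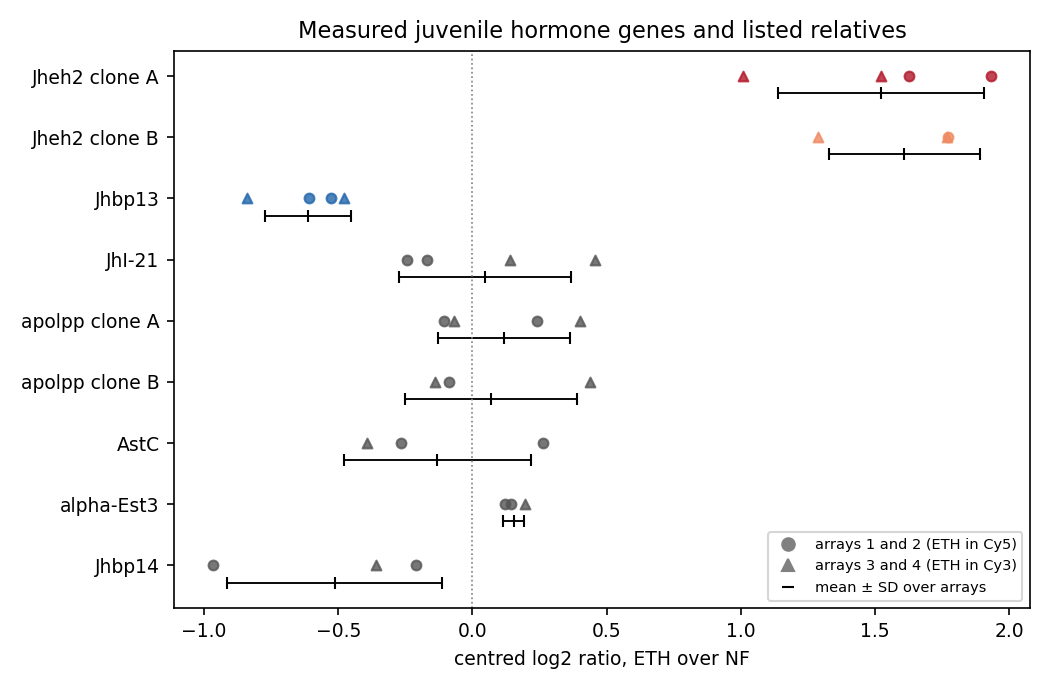
Centred log2 ratio of ETH over NF for the measured juvenile hormone genes and for the tested genes of the pathway and family lists. Circles are arrays 1 and 2, triangles arrays 3 and 4, and bars the mean ± SD. The arrays of Jheh2 lie between 1.01 and 1.93, those of Jhbp13 and Jhbp14 lie below 0, and those of JhI-21, apolpp and AstC lie on both sides of 0.

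Likeness was measured as the mean absolute difference in centred ratio over the arrays that a member clone has. Among 183 named clones with values on all 4 arrays, the nearest to Jheh2 clone A was the cytochrome P450 gene Cyp4e2, at a difference of 0.26. Cyp4e2 was at centred ratios of 1.49, 1.44, 1.13 and 1.82 on arrays 1 to 4, so that it was also lowest on array 3. The next were Cyp6a20, another P450 gene, at 0.72, then MSBP, which encodes a membrane steroid binding protein, at 0.99, and pst and CG4239 at 1.00. These last were far from Jheh2, with centred means between 0.53 and 0.54.

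For clone B, over 3 arrays and 227 named clones, Cyp4e2 was again the nearest, at a difference of 0.18. CG10560, named as like ecdysteroid kinases, followed at 0.42, with centred ratios of 1.36, 1.07 and 1.13 on arrays 2 to 4. Cyp6a20, MSBP and pst came next, at 0.94, 0.96 and 1.02.

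The clone nearest to Jhbp13 was Gbs-70E, which encodes a glycogen-targeting subunit of protein phosphatase 1, at a difference of 0.18. It was at centred ratios of -0.59, -0.29, -0.64 and -0.64 on arrays 1 to 4. Obp19d, an odorant-binding protein gene, followed at 0.28, then Msr-110 at 0.29, CG3088 at 0.31 and the glutamine synthetase gene Gs2 at 0.32. The centred means of these 4 lay between -0.40 and -0.33, closer to 0 than that of Jhbp13.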

How the data were processed

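Per the series' design text, the authors quantified 4 arrays of 2 colours with GenePix Pro 6.0 and normalized their ratios in Acuity 4.0, ignoring spots of raw intensity under 100. Spots then had to reach a signal-to-noise ratio of 3 and a regression R2 of 0.6, with fewer than 3% of pixels saturated. The deposited values, 1 column per array, were taken as log2 ratios. The log base, the numerator and any centring are not stated.

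The 2 neighbouring spots of a clone were averaged (7609 of 7609 pairs named on both spots had the same gene), and arrays 3 and 4 were turned. Probes with 1 symbol were named through RefSeq's table for Release 6 by gene number (14894 of 15116 spots matched). Clones with values on at least 3 arrays were fitted with limma 3.58.1 (R 4.3.3) against 0. The test was two-sided, adjusted by the Benjamini-Hochberg method, with 0.05 as threshold, and was checked on simulated data. The simulated clones shared the same spread and had no array offsets, so the check did not cover offsets like those of these columns. On the deposited values eBayes gave all clones the same variance. A centred value subtracts the array's median over tested clones. Alternatives were centring, scaling, no turned column, leaving out each array, single spots, a dye term, other minimum numbers of arrays and the unmoderated test.

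Members, lists and rules were chosen with earlier results of these data known. Named were all members, every listed gene with values on at least 3 arrays, jhamt, Met, gce and Kr-h1, and the 5 named clones most like each member clone. CG15084 was named after its values were seen.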

Additional observations from a re-analysis of the deposited data

How the results depend on the processing

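The mean ratio of Jheh2 clone A kept its sign under every alternative run, which did not include Cy3 as numerator. It moved by more than its SD in 1 case, to 0.26 with no column turned and each array centred. With no column turned it was 0.70 on the deposited values, and was not called in either case. Both are means of values above 0 on arrays 1 and 2 and below 0 on arrays 3 and 4. Leaving out single arrays gave 1.15 to 1.78 (deposited) and 1.39 to 1.69 (centred). For Jheh2 clone B the range was 1.09 to 1.54 (deposited) and 1.53 to 1.77 (centred), and the sign changed with no column turned, to -0.085 (deposited) and -0.43 (centred). For Jhbp13 the range was -0.88 to -0.32 (deposited) and -0.66 to -0.54 (centred), and the sign changed with no column turned, to 0.49 (deposited) and 0.046 (centred). The count of called clones, 5 on the deposited values, was 14 with each array centred, 11 with scaling as well, 32 with no column turned and 0 with no column turned and centring. It was 2 among clones with all 4 arrays and 0 in the unmoderated test. Where 0 were called, 86 clones (limma, no column turned, centred) and 21 (unmoderated) had an unadjusted p under 0.05. Leaving out single arrays gave 1 to 5 calls (deposited) and 5 to 23 (centred). The lists of pathway and family genes had 0 calls under every alternative run. With clones of at least 3 arrays they held 4 and 2 clones, too few for this to show stability. The cause of these changes was not tested. Each ratio already pairs ETH and NF on 1 array, and no further pairing was possible because the arrays form 1 group of ratios. With 4 arrays and no spot intensities used here, signal over background could not be set beside any ratio.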

Other observations

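Some listed genes that were measured on too few arrays for a test lay far from the rest, and were looked up after their values were seen. The carboxylesterase-like gene clt had a clone each on arrays 1 and 2. The clone on array 1, with a value from 1 spot, was at a centred log2 ratio of ETH over NF of -0.80 and ranked 209th from the lowest of 5095 clones. The other, on array 2, had spots at -1.52 and -1.23, a centred ratio of -1.53 and rank 81 from the lowest of 3169. No array measured both clones of clt, and neither of arrays 3 and 4 gave a value.

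A clone of tai, which encodes a coactivator of the juvenile hormone receptor, had the highest ratio of all 812 clones on array 4, at 3.72 with that array turned. With no column turned it would have the lowest, at -3.72. Its spots there read 0.21 and 7.24, so the clone's value rests on 1 spot. The other clone of tai was at -0.66 on the same array, or -0.032 after centring, with spots at -0.63 and -0.70. Neither clone was measured on at least 3 arrays.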
